A study of Mus musculus with 10 samples.

Results

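Small nucleolar RNAs (snoRNAs) were represented by the 73 genes whose only platform symbol was Snora or Snord followed by a number, out of 22180 measured genes. Of these, 26 were H/ACA genes (Snora) and 47 were C/D box genes (Snord). Each gene was measured by 1 probe set, the brightest over all arrays where there were several, which applied to Snora33 and Snora19. A further 43 of the 118 probe sets that name such a gene carried several symbols, many of them together with a host transcript, and were not counted as members. The values are log2 signals from single-channel arrays of sorted mouse regulatory T (Treg) cells, the Foxp3-expressing T cells that restrain immune responses.

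The study compared 5 wild type (WT) with 5 LKB1-deficient samples, titled Stk11 deletion, all of Treg cells taken by sorting from mixed bone marrow chimeras, with no culture before lysis. Stk11 encodes LKB1, a kinase upstream of AMPK, and the comparison asks which Treg transcripts depend on it. Not given in the sources used here are the allele, the Cre driver, the recipients, the age of the animals and whether samples of a group came from separate animals. Running codes in the descriptions place replicates 1 to 3 of both groups in 1 series (set 1) and replicates 4 and 5 in another (set 2), without saying what the series are.

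snoRNAs are short noncoding RNAs that guide chemical changes of ribosomal RNA and of spliceosomal RNAs in the nucleolus and Cajal bodies. H/ACA snoRNAs, bound by dyskerin (Dkc1), Nhp2, Nop10 and Gar1, guide pseudouridylation, and C/D box snoRNAs, bound by fibrillarin, Nop56, Nop58 and Snu13, guide ribose methylation. A few members of both classes serve in the cleavage of pre-ribosomal RNA instead. Most mammalian snoRNAs are cut out of introns of host genes, many of which encode ribosomal proteins or translation factors or have no other known product. Column purification of the kind the labels name recovers such short RNAs poorly, and signal from the mature snoRNA and from its intron in unspliced host RNA cannot be told apart on these arrays.

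Many host genes start transcription within a run of pyrimidines. The start regions of 3 hosts on which the results turn are shown, from 40 bases before to 20 bases after the annotated start, as given by RefSeq for GRCm38.p6. Capitals mark the longest unbroken run of C or T on the transcribed strand that touches the 20 bases on either side of the start.
Ipo7, chr7:110018275-110018334, plus strand: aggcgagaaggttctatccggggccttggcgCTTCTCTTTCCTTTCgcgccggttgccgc
Rpl39, chrX:37085203-37085262, minus strand: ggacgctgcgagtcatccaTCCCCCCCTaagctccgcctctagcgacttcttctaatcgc
Snhg12, chr4:132308638-132308697, plus strand: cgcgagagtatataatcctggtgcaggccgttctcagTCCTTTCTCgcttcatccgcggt
The run of Ipo7, host of Snora23, had 15 bases, a length reached in 2.6% of 32851 such windows of the mouse annotation. The runs of Rpl39, host of Snora69, and of the noncoding gene Snhg12, host of 4 members, had 9 bases each, a length reached in 14.7% of windows. The runs of Ipo7 and Snhg12 begin at -9 and -3 and cross the annotated start. That of Rpl39 begins at -21 and ends before the start, so it does not contain it. The median run was 5.0 bases over all windows, each taken singly. It was also 5.0 over the 35 hosts with a window, where the longest run among the windows of a host was taken. These are descriptions of letters, and no sequence of a snoRNA itself is given here.

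Over all arrays the levels of the targeted gene overlapped between the groups. Within each set every LKB1-deficient array was below every WT array, narrowly so for LKB1-deficient 1 (6.57, against 6.61 for WT 1). Stk11 was at 6.61, 6.69, 6.75, 6.95 and 6.92 in WT samples 1 to 5 and at 6.57, 6.01, 6.05, 6.71 and 6.78 in LKB1-deficient samples 1 to 5, a difference of -0.36 (SE 0.16, limma adjusted p = 0.335). LKB1-deficient arrays 1, 4 and 5 also carried more signal of other cell types. Of 13 measured macrophage markers 12 had positive estimates, and their mean was 6.94 to 7.36 in WT, compared with 7.72, 7.14, 7.38, 9.43 and 9.59 in LKB1-deficient samples 1 to 5. All 12 measured B cell markers had positive estimates, and their mean was 5.64 to 5.98 in WT, compared with 7.10, 5.84, 5.89, 6.96 and 7.17 in the same order. Means over 7 natural killer (NK) cell and 5 neutrophil markers were 4.49 to 4.59 and 4.62 to 5.06 in WT and 4.64 to 5.71 and 4.28 to 6.22 in LKB1-deficient samples. Treg and T cell markers (8 genes) averaged 10.86 to 10.93 in WT and 10.34 to 11.01 in LKB1-deficient samples, and the Foxp3 level was 9.86 on LKB1-deficient array 1 against 10.95 to 11.19 in WT. Samples are named by their labels throughout.

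Mean levels of members over the arrays ran from 2.56 to 11.68, against 1.97 to 13.24 over all genes. The median member had a mean log2 signal of 6.65, against 5.04 for all genes, and 7 members lay among the dimmest 40% of genes, below 4.53. The highest C/D members were Snord13 (11.68), which helps direct acetylation of the small-subunit RNA and has a promoter of its own, Snord104 (11.25) and Snord65 (9.90). Among H/ACA members Snora33 (10.38), Snora21 (9.16) and Snora23 (9.10) were the highest. Snora35, which sits in the serotonin receptor gene Htr2c and is known from brain, was at 4.27, within the dimmest 40%. These levels compare probe sets and not amounts of RNA, since probes differ in brightness.

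Snora23, an H/ACA guide in an intron of Ipo7, rose in LKB1-deficient samples, the only member to pass the test. WT arrays 1 to 5 measured 8.37, 8.41, 8.62, 8.53 and 8.95, and LKB1-deficient arrays 1 to 5 measured 10.18, 10.03, 9.29, 9.34 and 9.25. All LKB1-deficient arrays lay above all WT arrays, with arrays 1 and 2 highest and a narrow gap between the other 3 and WT 5. The means were 8.58 ± 0.23 and 9.62 ± 0.45 (SD, n = 5 in each group), a 2.06-fold difference (log2 1.04, SE 0.19, 95% interval 0.62 to 1.46, limma adjusted p = 0.0295; probe set 17481723). The difference was 1.36 within set 1 and 0.56 within set 2. Leaving out 1 array at a time kept it between 0.90 and 1.13, and the call was lost without WT 1, 2, 3 or 4 or LKB1-deficient 2 (adjusted p up to 0.0867). With the replicate number as a block its adjusted p was 0.103.

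Snora23 is thus 1 of 73 members higher, beside 0.234% of all genes (52), and 0 of 73 members were lower, beside 0.83% of all genes (184). By an unadjusted p under 0.05, 2 members were higher (background 5.19%) and 17 were lower (background 8.8%). The groups did not overlap in 1 member that was higher, Snora23 (background 0.996%), and 1 that was lower, Snora69 (background 3.71%). The limma estimate was negative in 49 of 73 members (67.1%), in 16 of 26 H/ACA and in 33 of 47 C/D members, against 49.2% of all genes. The median difference was -0.18 over the members, -0.11 over H/ACA and -0.18 over C/D, against 0.0034 over all genes. Since members were brighter than most genes, genes outside the dimmest 40% are the nearer reference, and their median was -0.04 with 58.2% negative. By unadjusted p, 1827 of these 13308 genes (13.7%) were lower and 724 were higher. The 66 members outside the dimmest 40% had a median of -0.18 with 65.2% negative. By unadjusted p, 16 of these 66 (24.2%) were lower and 2 were higher. The 483 microRNA genes measured on the same arrays had a median of 0.05, with 35.6% negative. Of these, 330 lay within the dimmest 40%, and their median level was 3.64, against 6.65 for members. The 2 classes are therefore not matched in signal.

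**Figure D1:**
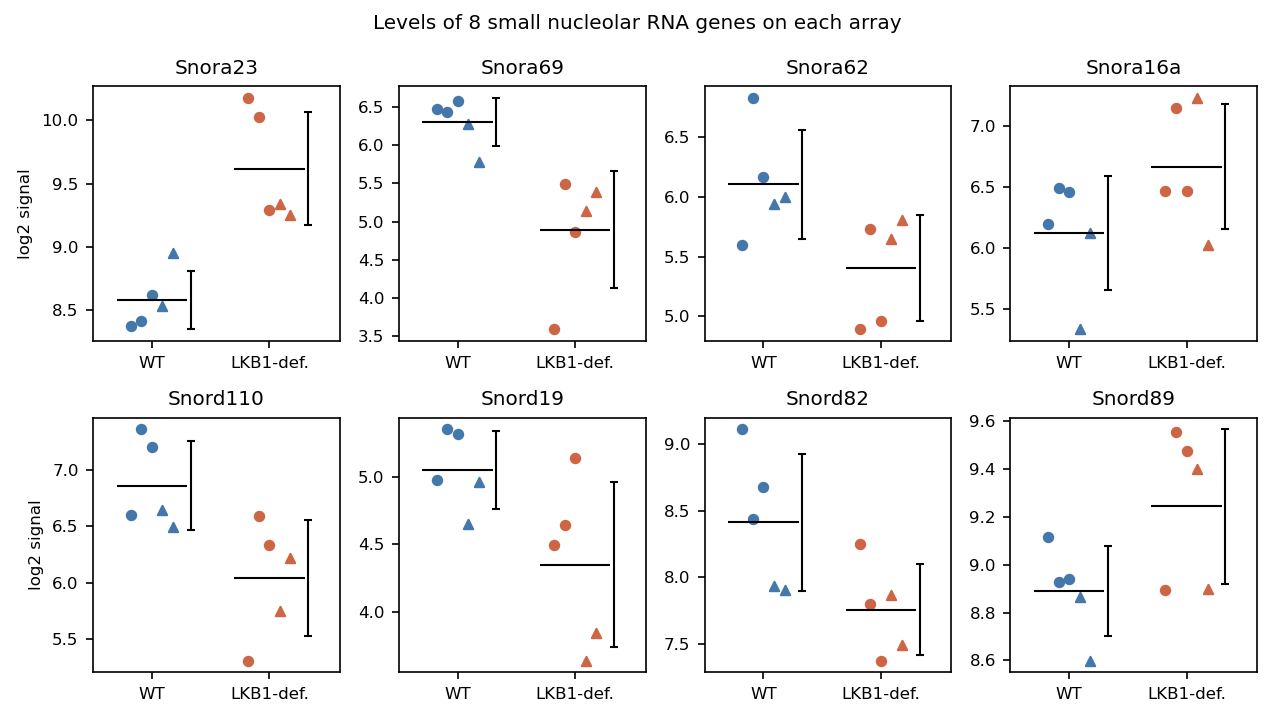
Log2 signal of 8 snoRNA genes on each of the 10 arrays, WT in blue and LKB1-deficient in orange, with circles for set 1 and triangles for set 2, the group mean as a line and the SD (n = 5) as a bar beside it. The groups are separate in Snora23 and Snora69 and overlap in the other panels.

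The member with the largest fitted decrease was Snora69, an H/ACA guide in Rpl39, which encodes a protein of the large ribosomal subunit. WT arrays 1 to 5 were at 6.47, 6.43, 6.58, 6.28 and 5.78, and LKB1-deficient arrays at 3.59, 5.49, 4.86, 5.14 and 5.39. The groups did not overlap, LKB1-deficient 1 was lowest by a wide margin and WT 5 was the WT array nearest to the other group. The difference of -1.41 (SE 0.31, 95% interval -2.08 to -0.75) just missed the threshold (limma adjusted p = 0.0505). It was -1.85 within set 1 and -0.76 within set 2. Without LKB1-deficient 1 it shrank to -1.09 and passed (adjusted p = 0.00988), and without LKB1-deficient 2 it also passed (adjusted p = 0.0488). Removal of the dimmest 40% of genes from the adjustment gave an adjusted p of 0.0388.

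Of the other H/ACA members, 2 had differences of at least 0.5 in size. Snora62, which lies in the ribosomal protein gene Rpsa, was at 5.59, 6.83, 6.16, 5.94 and 5.996 in WT and at 4.89, 5.73, 4.96, 5.64 and 5.80 in LKB1-deficient samples. The groups overlapped through WT 1, and the difference was -0.70 (SE 0.24, adjusted p = 0.201). Snora16a, in Snhg12, was at 6.20, 6.49, 6.46, 5.34 and 6.12 in WT and at 6.47, 7.15, 6.46, 7.23 and 6.02 in LKB1-deficient samples. The groups overlapped widely, with LKB1-deficient 5 below 4 of the WT arrays, and the difference was 0.55 (SE 0.26, adjusted p = 0.373).

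Snora28, in the translation factor gene Eif5, had a difference of 0.49 that came from set 1 (0.82, against 0.0020 in set 2). Snora30, in the chromatin remodeller gene Srcap, differed by 0.97 in set 1 and by -0.30 in set 2. Snora20, in the chaperonin gene Tcp1, differed by 0.36, and without LKB1-deficient 1 by -0.04. None of these 3 passed the test, and their arrays overlapped.

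Negative estimates among H/ACA members included Snora68 (-0.46), Snora7a in Rpl32 (-0.42), and Snora73b (-0.46) and Snora73a (-0.33) in Snhg3. The Snora73 copies belong to the few H/ACA RNAs that act in pre-ribosomal RNA cleavage. They resemble each other closely, so their probe sets may share signal. The brightest H/ACA member, Snora33 in Rps12, was at 10.37 to 10.75 in WT and 9.93 to 10.58 in LKB1-deficient samples, a difference of -0.34 (SE 0.13, adjusted p = 0.259). A second Snora33 probe set, with a lower level of 7.08, gave -0.67.

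No C/D member passed the test. The largest fitted decrease in the class was that of Snord110 in Nop56, itself a C/D core protein gene. WT arrays were at 6.602, 7.36, 7.20, 6.65 and 6.49 and LKB1-deficient arrays at 5.31, 6.59, 6.33, 5.75 and 6.22, overlapping only through LKB1-deficient 2. The difference was -0.82 (SE 0.24, adjusted p = 0.139).

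Snord19, in the gene of the nucleolar GTPase nucleostemin (Gnl3), was at 4.98, 5.35, 5.32, 4.65 and 4.97 in WT and at 4.49, 4.64, 5.14, 3.64 and 3.85 in LKB1-deficient samples. LKB1-deficient 4 and 5 were the lowest of all arrays, and array 3 lay within the WT range. The difference was -0.70 (SE 0.25, adjusted p = 0.226) over all arrays and -1.07 in set 2 alone, where limma called it (adjusted p = 0.0321).

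Snord82, in the nucleolin gene Ncl, was at 9.11, 8.44, 8.68, 7.93 and 7.90 in WT and at 8.25, 7.80, 7.37, 7.87 and 7.49 in LKB1-deficient samples. WT 4 and 5 lay among the LKB1-deficient values, and the difference of -0.66 was mostly that of set 1 (-0.94, against -0.24 in set 2). Snord49b (-0.65) in the noncoding gene 2410006H16Rik and Snord73a (-0.59) in the ribosomal protein gene Rps3a1 completed the 5 largest decreases of the class. Snord73a was nearly equal in both sets, at -0.58 and -0.60. Over both classes, 10 members were lower by at least 0.5, 8 of them C/D, and 3 were higher by at least 0.5, 1 of them C/D, whether they passed the test or not.

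That C/D member was Snord71 (0.55, SE 0.42). Its value came from LKB1-deficient 1, at 10.25 (difference 0.06 without that array), while the other LKB1-deficient arrays were at 7.43 to 8.23 and the WT arrays at 7.57 to 7.95. Snord89, for which no spanning host gene was found, was at 9.12, 8.93, 8.94, 8.87 and 8.60 in WT and at 8.89, 9.56, 9.47, 9.40 and 8.90 in LKB1-deficient samples. LKB1-deficient 2, 3 and 4 were above every WT array and 1 and 5 within the WT range, a difference of 0.35 (SE 0.15, adjusted p = 0.317) of like size in both sets (0.31 and 0.42). The smaller positive estimates of Snord65 (0.22), Snord88c (0.16) and Snord35b (0.12) had standard errors of 0.29, 0.16 and 0.17. The bright Snord13 differed by -0.16 (SE 0.21) and Snord104 by -0.29 (SE 0.15). Snord118, known as the U8 RNA of large-subunit RNA processing, differed by -0.38 (SE 0.19), and Snord22, which acts in small-subunit RNA processing, by -0.39 (SE 0.20); these last 2 were chosen for their roles after their values were seen.

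**Figure D2:**
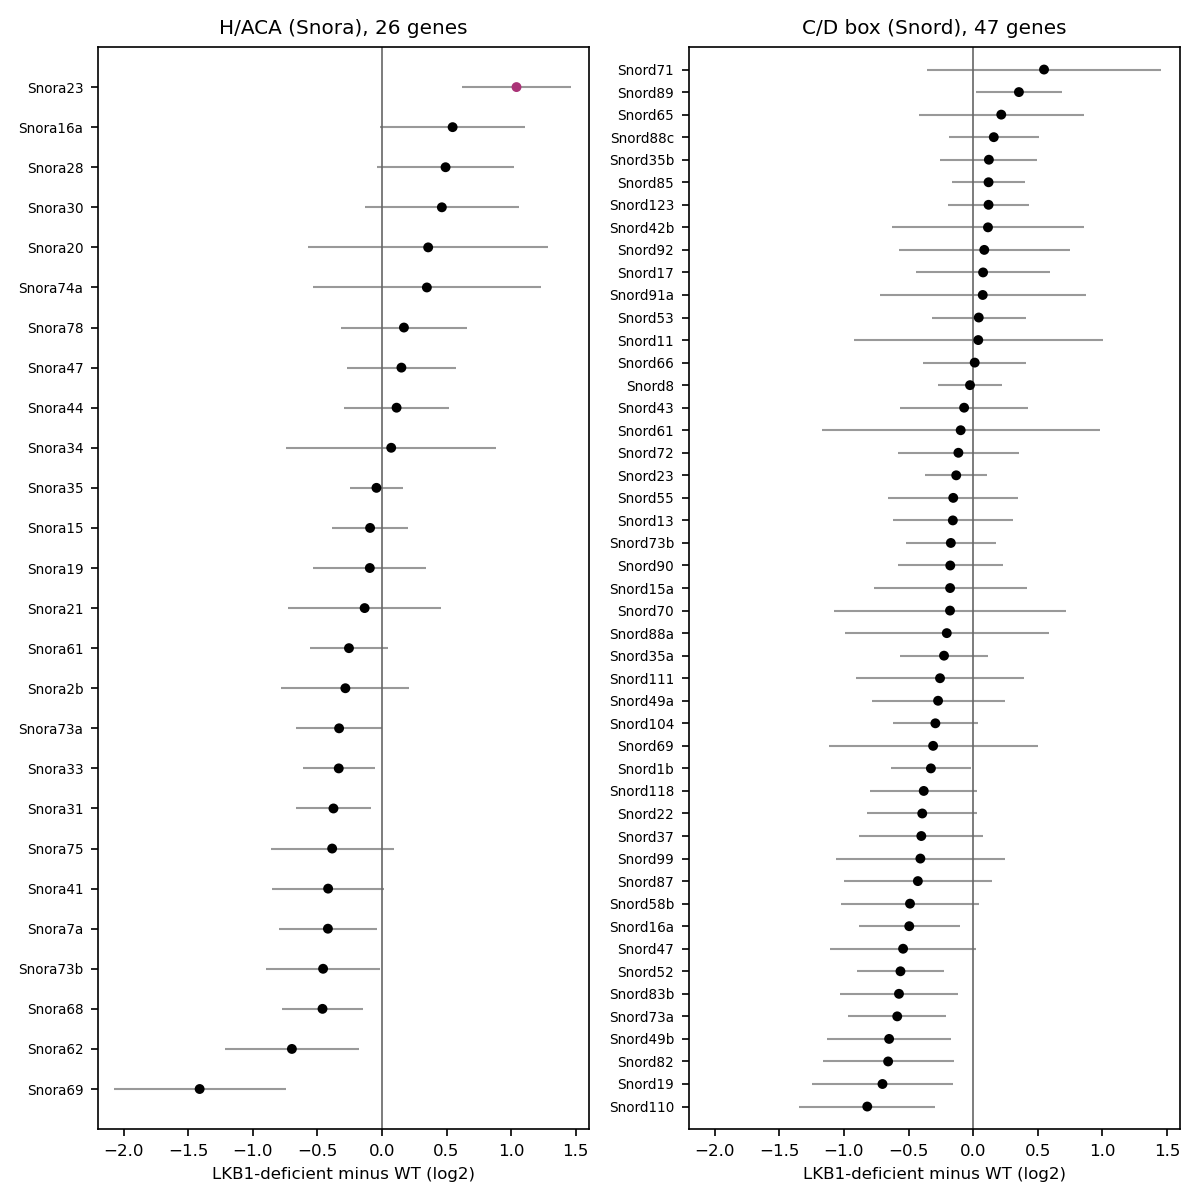
Fitted log2 difference, LKB1-deficient minus WT, of each of the 26 H/ACA and 47 C/D genes in order of size, with 95% intervals of the limma fit as lines. Only Snora23, in magenta, passed an adjusted p under 0.05, and estimates below 0 outnumber those above in both classes (16 of 26 and 33 of 47).

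The classes were compared array by array through the mean level of each. The H/ACA mean was 6.76 ± 0.16 for WT and 6.67 ± 0.23 for LKB1-deficient samples (SD, n = 5 each). For C/D it was 6.89 ± 0.16 and 6.69 ± 0.31 (SD, n = 5 each). The H/ACA mean minus the C/D mean was -0.26, -0.11, -0.12, -0.10 and -0.08 on WT arrays 1 to 5. It was -0.09, -0.0013, -0.16, 0.13 and -0.02 for LKB1-deficient samples 1 to 5. The groups overlapped, WT 1 was the lowest of the 10 arrays and LKB1-deficient 4 was the only array where H/ACA members had the higher mean. The group means of this quantity were -0.13 ± 0.07 and -0.03 ± 0.11 (SD, n = 5 each), 0.10 apart, which is about the pooled SD of 0.09 within groups. Within sets the distance was 0.08 and 0.15, and without Snora23 it was 0.06 over all arrays.

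**Figure D3:**
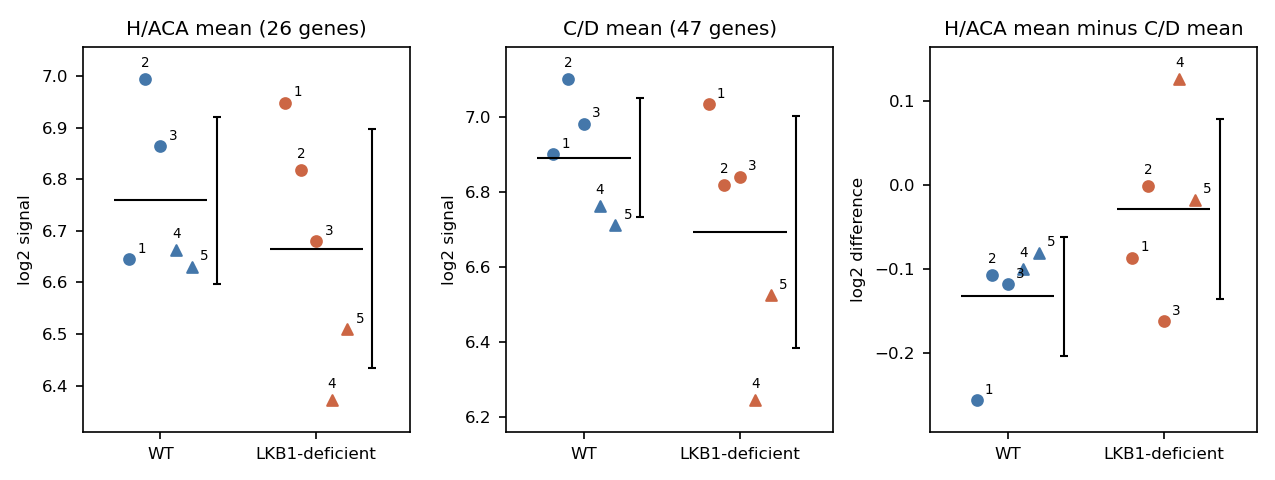
Mean log2 signal of the H/ACA genes, of the C/D genes and the difference of these means on each array, numbered by replicate, with circles for set 1 and triangles for set 2, group means as lines and SD (n = 5) as bars. LKB1-deficient arrays 4 and 5 are the lowest of all arrays in both class means, and the groups overlap in all panels.

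Both classes were lower on LKB1-deficient 4 and 5 in particular. Of the 73 members, 51 were below the lowest WT array on LKB1-deficient 4 and 39 on LKB1-deficient 5, against 16, 21 and 17 on LKB1-deficient 1, 2 and 3. Over all genes these shares ran from 20.7% to 28.5% on the 5 arrays, with 24.7% on array 4 and 26.2% on array 5. On both of arrays 4 and 5 together 35 of the 73 members were below all WT arrays, 25 of the 47 C/D and 10 of the 26 H/ACA members. LKB1-deficient 4 was the lowest of the 10 arrays for 32 members. On LKB1-deficient 1, 24 of 73 members (32.9%) were above the highest WT array, against 27.1% of all genes, and 19 had their highest value of all arrays there. For the count on both arrays and the counts of lowest and highest values, the share over all genes was not computed. Those counts therefore have no background here.

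The median H/ACA difference was -0.06 in set 1 and -0.31 in set 2, and the median C/D difference was -0.08 and -0.40, while over all genes it was 0.01 and -0.03. Of the 73 members, 59 (80.8%) were negative in set 2 and 41 (56.2%) in set 1, against 55.5% and 47% of all genes. Opposite signs in the sets were found in 30 members (41.1%) and in 42.9% of all genes. WT arrays differed between the sets as well, with a median of 0.22 higher in set 1 over members (59 of 73 higher), against -0.02 over all genes. Arrays 4 and 5 were also those with the highest macrophage means given above. With the macrophage and B cell means as covariates the median differences were -0.02 for H/ACA and 0.02 for C/D, so that the C/D sign turned. Without LKB1-deficient 1, 4 and 5 they were -0.08 and -0.03. This fit kept LKB1-deficient arrays of set 1 only, against WT arrays of both sets, so it was not matched for set. The C/D means of the LKB1-deficient arrays kept were 6.82 and 6.84. Those of WT were 6.90, 7.10 and 6.98 in set 1 and 6.76 and 6.71 in set 2. The H/ACA means were 6.82 and 6.68, against 6.65, 6.99 and 6.86 for WT in set 1 and 6.66 and 6.63 for WT in set 2. Whether other cells, the set or the deletion accounts for the lower values on arrays 4 and 5 was not tested, and fewer cells of a type and less RNA per cell cannot be told apart in these bulk samples.

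Snora23 was called in both of these fits (1.13, adjusted p = 0.0103, and 1.08, adjusted p = 0.0324), as was Snora69 (-1.23, adjusted p = 0.0152, and -1.13, adjusted p = 0.0386). They also called Snord92, a C/D member in Wdr43 named here after its values were seen. It was at 5.87, 6.09, 6.09, 6.11 and 5.97 in WT and at 6.37, 6.88, 6.76, 4.97 and 5.58 in LKB1-deficient samples. Arrays 1, 2 and 3 lay above every WT array and 4 and 5 below every one, so the difference over all arrays was 0.09 (SE 0.30, adjusted p = 0.934), that with covariates 0.83 (adjusted p = 0.046) and that without arrays 1, 4 and 5 0.80 (adjusted p = 0.00958).

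**Figure D4:**
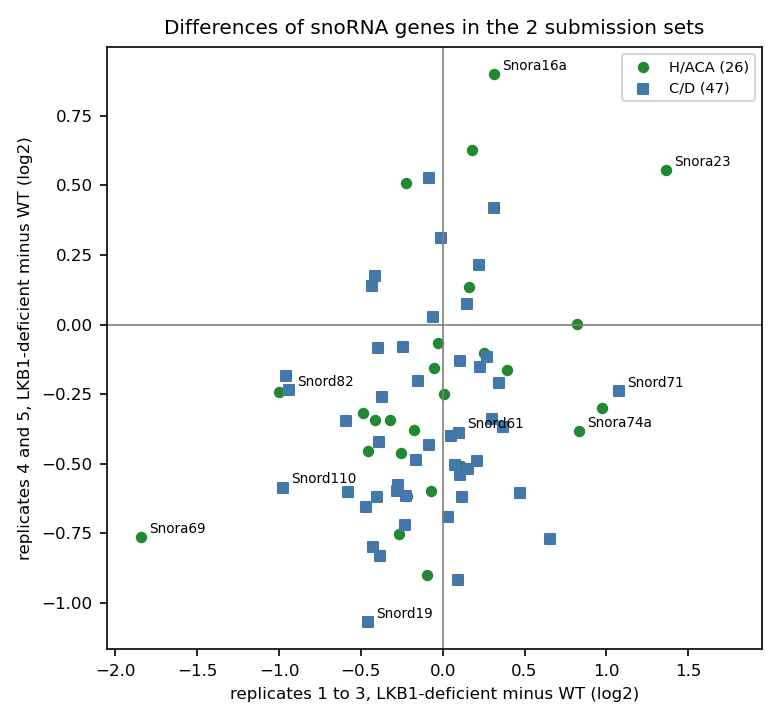
Log2 difference, LKB1-deficient minus WT, of the 73 snoRNA genes in replicates 1 to 3 (horizontal axis) and in replicates 4 and 5 (vertical axis), H/ACA as circles and C/D as squares. Snora23 and Snora69 keep their sign in both sets, and 59 of the 73 genes are below 0 on the vertical axis against 41 on the horizontal axis.

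Host genes were assigned by their spans in the RefSeq gene table. A single gene spanned 64 members, 6 had several and 3 had none (Snord89, Snord118 and Snord13). For 55 members the host was measured, which gave 41 different hosts. Of these, 3 fell and 0 rose, beside 0.83% and 0.234% of all genes. Negative estimates were found in 37 of 41 hosts (90.2%), with a median of -0.20. Over all genes 49.2% were negative, and outside the dimmest 40% of genes 58.2% were. The hosts that fell were Gnl3 (-0.65, SE 0.09, adjusted p = 0.00893), the C/D core protein gene Nop58 (-0.59, SE 0.11, adjusted p = 0.0266) and Rpsa (-0.42, SE 0.09, adjusted p = 0.0445). Leaving out 1 array ended the call of Rpsa in 9 of 10 fits (every array but LKB1-deficient 1, adjusted p up to 0.127) and that of Gnl3 in none. By unadjusted p, 18 of the 41 hosts (43.9%) were lower, against 8.8% of all genes and 13.7% of genes outside the dimmest 40%, where 39 of the hosts lie. The same p had 2 hosts higher, against 5.19% of all genes.

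Member and host had the same sign in 38 of 55 cases, of which 36 were both negative. Since most hosts and most members had negative estimates, most cases would share a sign even if members and hosts were unrelated. This count therefore shows no link between them. In 15 cases the snoRNA estimate was positive and that of its host negative, and in 2 cases it was the reverse. The differences correlated weakly over the 55 cases (Pearson r = 0.123, Spearman rho = 0.159), a description only, since the points share arrays and several share a host. Hosts with ribosomal protein products (11 genes, 13 members) had negative estimates in all 11, and 12 of the 13 snoRNAs in them were negative with a median of -0.42. Of the 42 members in other hosts, 26 were negative with a median of -0.15.

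Ipo7, the host of Snora23, encodes an importin that carries proteins into the nucleus. It was at 7.96, 7.86, 7.95, 7.79 and 7.93 in WT and at 7.30, 7.75, 7.21, 7.86 and 8.21 in LKB1-deficient samples. The groups overlapped, and the difference was -0.23 (SE 0.17, adjusted p = 0.591), of the opposite sign to that of Snora23. On LKB1-deficient 1, where Snora23 was highest, Ipo7 was below every WT array.

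Rpl39, the host of Snora69, was at 5.52, 5.54, 5.37, 5.32 and 5.53 in WT and at 5.45, 5.35, 5.06, 5.46 and 5.76 in LKB1-deficient samples. The values overlapped and the difference was -0.04 (SE 0.12, adjusted p = 0.923). This probe set was dim, with a mean of 5.44, against a median of 9.17 over the hosts and 5.04 over all genes. How well it reports Rpl39 RNA is not known, so an unchanged host cannot be read from it. Gnl3 was 8.72 to 8.99 in WT and 8.10 to 8.32 in LKB1-deficient samples, with no overlap, and both of its members had negative estimates, Snord19 at -0.70 and Snord69 at -0.31. In Nop58, which also fell, Snord70 (-0.18) and Snord11 (0.04) had standard errors of 0.41 and 0.44. With the replicate block the adjusted p of Nop58 was 0.0713.

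Members of the same host did not always share a sign. Of 11 hosts with several measured members (25 in all), 6 had members of 1 sign. Snhg12, a noncoding gene, was at 8.71 to 8.88 in WT and 8.25 to 8.64 in LKB1-deficient samples, with no overlap, a difference of -0.35 (SE 0.10, adjusted p = 0.115). Its 4 members ranged from Snord99 at -0.41 and Snora61 at -0.26 to Snora44 at 0.11 and Snora16a at 0.55. In 2410006H16Rik (-0.14), Snord49b at -0.65 and Snord49a at -0.27 lay beside Snord65 at 0.22. Both members of Ncl (-0.39), Snord82 and Snora75 (-0.39), and both of Snhg3 (-0.14) were negative. None of these members passed the test.

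**Figure D5:**
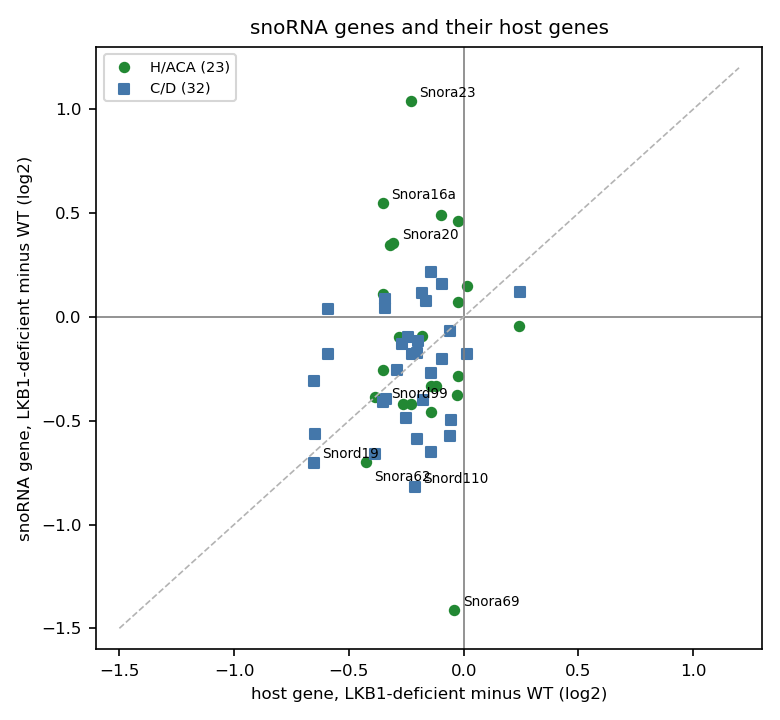
Log2 difference, LKB1-deficient minus WT, of 55 snoRNA genes (vertical axis) against that of their host genes (horizontal axis), H/ACA as circles and C/D as squares, with equality as a dashed line. The hosts lie between -0.65 and 0.25, and Snora23 and Snora69 lie far from their hosts in opposite directions. The host value of Snora69 comes from a dim Rpl39 probe set (mean 5.44).

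The proteins that bind H/ACA snoRNAs had negative estimates in all 4 genes, and 2 fell. Over all genes 49.2% had negative estimates and 0.83% were called lower. Outside the dimmest 40%, where all 4 genes lie, 58.2% were negative and 181 of 13308 genes were called lower. Dkc1, the pseudouridine synthase dyskerin, was at 7.54, 7.40, 7.54, 7.58 and 7.48 in WT and at 7.11, 6.95, 6.99, 6.97 and 6.86 in LKB1-deficient samples. Every LKB1-deficient array was below every WT array, a difference of -0.53 (SE 0.08, adjusted p = 0.0129). Nhp2, at 8.34 to 8.51 in WT and 7.37 to 7.90 in LKB1-deficient samples, fell by 0.68 on the log2 scale (SE 0.11, adjusted p = 0.0145), again with no overlap. Both calls were lost without WT 4 (adjusted p = 0.0536 each) and with the replicate block (0.0713 and 0.0677). Nop10 (-0.31) and Gar1 (-0.31) did not pass.

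Of the C/D core proteins, 3 of 4 were measured, and Nop58 fell, with Snu13 at -0.37 and Nop56 at -0.21. The counts in this paragraph stand beside 49.2% of all genes with negative estimates and 0.83% called lower. Outside the dimmest 40% of genes, 58.2% were negative. The call of Nop58 held only without LKB1-deficient 1 or 2 among the 10 fits that left out 1 array (adjusted p up to 0.0826). The 7 assembly factors of C/D particles, which include the Ruvbl ATPases, all had negative estimates (median -0.30), and none passed; Znhit6 was nearest (-0.54, SE 0.12, adjusted p = 0.0506). The H/ACA assembly factors Shq1 (-0.24) and Naf1 (-0.05) and the nucleolar chaperone Nolc1 (-0.25) did not pass either. Of 20 genes for intron release, trimming and transport, 17 were measured, all with negative estimates (median -0.18), and the exonuclease gene Xrn2 fell (-0.40, SE 0.08, adjusted p = 0.0435). That call held only without LKB1-deficient 1 or 3 (adjusted p up to 0.119). Among 16 noncoding host genes, Snhg5 fell (-0.78, SE 0.12, adjusted p = 0.016), and the call was lost without WT 1, WT 3 or WT 4 (adjusted p up to 0.058).

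Other small RNA genes of the nucleus were few on the arrays, and their difference from the snoRNA genes was not tested. Of 5 Cajal body RNA genes 4 had positive estimates and Scarna8 a negative one (-0.25), and in set 2 3 of the 5 were negative (median -0.08). Estimates were positive in 11270 of all 22180 genes over all arrays and negative in 55.5% of genes in set 2. Scarna10 was nearest to the threshold over all arrays (0.93, SE 0.23, adjusted p = 0.0813). All 4 genes named Rnu had positive estimates over all arrays, and 1 was negative in set 2. Rnu11, of the minor spliceosome, differed by 0.40 (SE 0.16, adjusted p = 0.267). Rnu3a, which encodes the U3 RNA, itself a C/D snoRNA under another symbol, differed by 0.55 (SE 0.25, adjusted p = 0.339). None of these 9 genes passed the test.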

How the data were processed

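The deposited values are log2 signals of 41345 probe sets on 10 single-channel arrays, made with RMA (background correction, quantile normalization, summary over probes) and Partek 6.6, per the submitters' processing notes; not given in the sources used here are the settings and the genome build. Per the labels' protocols, nanogram amounts of RNA were amplified (NuGEN WTA Pico v2), which can distort levels of single transcripts. Quantile normalization hides any shift common to all genes. Without detection calls, low signal and background cannot be told apart.

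In the platform annotation 23521 probe sets carried 1 symbol, 1814 several and 16010 none. LKB1-deficient minus WT was fitted with limma 3.58.1 in R 4.3.3 (lmFit, eBayes, prior degrees of freedom 4.36) over all 22180 genes, with Benjamini-Hochberg adjustment over all of them and a call at 0.05. Every adjusted p in the text is limma's. Class means, medians and counts of members carry no test. Nothing says that samples of a group were separate animals, so the p-values reflect the spread of these samples, which may be technical, and the number of arrays limits the precision.

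Members, gene lists and tests were chosen with earlier results of these data known. Genes named by rule were the targeted gene, called members, the 5 largest differences in each direction and the 3 highest levels of each class, their hosts and the other members of those hosts, and called or lowest-p genes of the other lists; others were chosen after their values were seen. All 73 members matched the RefSeq gene table of GRCm38.p6. Host spans came from that table, which gives no strand, so strand was not required. Erythroid markers had no probe set with a single symbol and were not analysed here. Alternatives were other probe set, filter, scaling and variance choices, array weights, the replicate number or the set as a block, single sets, marker means as covariates, arrays left out and a stricter threshold, and, chosen after seeing the data, the H/ACA class without Snora23 and the addition of probe sets with several symbols. On simulated data with 200 of 22180 genes changed, the same code recovered 38%, 88%, 98% and 100% of changes of 0.5, 1, 1.5 and 2 (log2) and called 8 of 21980 unchanged genes. The changed genes were drawn at random from all genes, with noise independent between genes. Members varied more, with a median SD of 0.28 in WT and 0.46 in LKB1-deficient samples, against 0.15 and 0.21 over all genes. Recovery among snoRNA genes was not measured.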

Additional observations from a re-analysis of the deposited data

Results flagged for a closer look

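In 63 quantities (the named genes and the class means), each group of 5 arrays was searched for an array far from the other 4, and 5 of 126 groups held one; chance flags about 1 in 20 such groups. LKB1-deficient 1 accounted for 3. It was the highest of its group for Snord71 at 10.25 (next 8.23), for Snora75 at 8.34 (next 7.52) and for Snora20 at 8.29 (next 6.52). WT 5 was the lowest WT array for the noncoding host gene Snhg5 at 9.70 (next 9.99). WT 1 had the lowest H/ACA minus C/D difference of the WT arrays at -0.26 (next -0.12).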

How the results depend on the processing

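Leaving out each array in turn gave 8 to 180 genes higher and 30 to 340 lower over all genes, 0 to 1 snoRNA genes higher and 0 to 1 lower, an H/ACA median of -0.24 to -0.06, a C/D median of -0.27 to -0.08 and a class difference (H/ACA minus C/D) of 0.07 to 0.14. In every alternative run that gave it, the class difference moved by less than its pooled SD between arrays (0.09). Both medians moved by less than the pooled SD of the class mean, 0.20 for H/ACA and 0.25 for C/D. The spread of the class medians themselves between arrays was not used as a measure. The C/D median changed sign with the covariates (0.02).

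All genes called lower were 284 with the dimmest 40% removed, 285 with array medians subtracted and 103 with a second quantile normalization. Counts higher and lower were 79 and 307 with a trended robust prior, 135 and 329 with array weights, 0 and 0 in set 1 alone, 423 and 46 in set 2 alone, and 5 and 20 at an adjusted p under 0.01. Genes higher were 17 without moderation, 94 with the covariates and 154 without LKB1-deficient 1, 4 and 5. The replicate numbers did not pair the samples (correlation of deviations -0.08 to 0.10, and only number 2 matched best in both groups). That number as a block (replicate block) gave 14 higher and 36 lower genes, with 0 snoRNA genes in either direction.

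snoRNA genes called higher were 0 without moderation, in either set alone and at the stricter threshold, and 2 with the covariates or without LKB1-deficient 1, 4 and 5. Those called lower were 1 with the dimmest 40% removed, medians subtracted, array weights, set 2 alone, the covariates or those 3 arrays left out.

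Over 60 named genes and their alternatives, 1305 of 1440 estimates kept direction and side of the threshold, 77 lost the call, 23 gained it and 35 changed sign, none of the last being called in either fit. Changes of sign in set 1 alone were to 0.11 in Snora21, -0.0846 in Snord88c, 0.0735 in Snord13, 0.0953 in Snord69, 0.0814 in 2410002F23Rik and 0.0027 in Snhg3. In set 2 alone they were to -0.30 in Snora30, -0.24 in Snord71, -0.21 in Snord35b, 0.14 in Snord88a, -0.10 in Snora44, 0.19 in Rpl39, 0.0051 in Srcap and 0.18 in Ipo7. The covariates gave -0.0457 in Snord65, 0.18 in Snord13, 0.0471 in Snord99, 0.0205 in Snord69, 0.057 in 2410002F23Rik and 0.101 in Srcap. Without LKB1-deficient 1, 4 and 5 the values were -0.12 in Snord65, 0.0979 in Snord13, 0.0676 in 2410002F23Rik and 0.13 in Srcap. Srcap was 0.0128 with the second quantile normalization and 0.0282 with array weights. With each array left out in turn, Snora20 ranged from -0.0425 to 0.564, Snord65 from -0.0783 to 0.392, Snord35b from -0.0326 to 0.231 and Snora44 from -0.0283 to 0.225, the lowest each time without LKB1-deficient 1. Snora21 ranged from -0.432 to 0.0065, Snord88a from -0.559 to 0.0479, Rpl39 from -0.126 to 0.0495 and Srcap from -0.0769 to 0.0727, with the positive values without LKB1-deficient 5, 4 and 3 for the first 3 and without LKB1-deficient 1 or WT 5 for Srcap. The cause was not tested. Stk11 was called with the covariates and without the 3 arrays.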
